A study of Mus musculus with 23 samples.

Results

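The comparison is between re-isolated cells at opposite ends of Notch1 dose: 4 libraries of N1OE cells, which overexpress NICD1, and 3 libraries of N1KO cells, in which Notch1 was knocked out. It covers the genes with at least 1 CPM (the gene's reads divided by the library's total, on a common scale) in at least 3 of these 7 libraries, which were 13370 of the 21264 genes in the table. The 7 libraries are part of a series of 23. All come from iPax3 cells, an embryonic stem cell line from which induced Pax3 yields muscle progenitors, and all 7 are labelled as donor-derived satellite cells recovered after engraftment and were made with a low-input cDNA kit and Nextera XT. The 9 re-isolated controls of genotype WT serve as background. The labels do not give the promoter that drives NICD1, the part of Notch1 that was altered, the number of clones, the recipient mice or the time after transplantation. Nor do they say that replicates came from separate animals, so p-values measure the spread between these libraries only.

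Notch1 is a cell surface receptor whose intracellular domain, NICD1, is cut free when a ligand on a neighbouring cell binds. NICD1 enters the nucleus, joins the DNA-binding protein RBPJ and switches on genes such as the Hes and Hey repressors. In muscle the pathway is known for keeping satellite cells, the stem cells beside the fibre, quiescent and undifferentiated. Satellite cells also depend on the calcitonin receptor and on matrix molecules of their niche.

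Library totals were 11637817 to 29154176 reads in N1OE and 17789927 to 18621838 in N1KO, and 3 reads stand for 0.103 to 0.258 CPM and 0.161 to 0.169 CPM, respectively. The first principal component of the 7 libraries held 48.2% of the variance and separated the genotypes. N1OE replicate 4 stood apart on the second (-90.5, other libraries -30.2 to 53.7). The satellite cell genes Pax7 and Myf5 were read in all 7 libraries, at 19.9 to 154 and 10.5 to 68.4 CPM. The N1OE and N1KO libraries also differ in a property that the labels do not name. The number of genes with 1 read, divided by the number with 2 reads, was 4.18 to 6.82 in N1OE and 1.25 to 1.40 in N1KO. It was 4.17 to 5.91 in the 5 controls whose column header carries the suffix GoF (marked controls) and 1.08 to 1.5 in the 4 others (unmarked controls). Genotype and library set therefore cannot be told apart in a direct comparison of N1OE with N1KO. Control ranges are given beside some of the values, and a second comparison subtracts from each genotype the controls with the like ratio.

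Of the 13370 genes, 1608 differed between N1OE and N1KO (12%, limma, adjusted p under 0.05). In N1OE 708 were higher (5.3%) and 900 lower (6.73%). Counts of calls in the gene lists below stand beside these shares. The 7 libraries did not overlap between the genotypes for 636 of the 708 and for 844 of the 900. Calls and overlap rest on the same 7 libraries, so these counts are no separate support for the calls. The share without overlap among all tested genes is not given here. The changes were large: 101 higher and 218 lower genes differed over 16-fold. The median log2 fold change (N1OE minus N1KO, used throughout) of all tested genes was 0.10, and -0.02 after median ratio scaling, a shift of 0.11. Extracellular matrix, tendon, Wnt inhibitor and fibroblast genes lead the falls, and Notch targets and satellite cell surface genes are among the rises. Without N1KO replicate 1 the number of calls was 1004, and with the 9 controls as another group in the fit, 3 in all, it was 1019. Of the named genes 49 lost their call in that 3-group fit, in which the controls of both sets share 1 group.

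**Figure D1:**
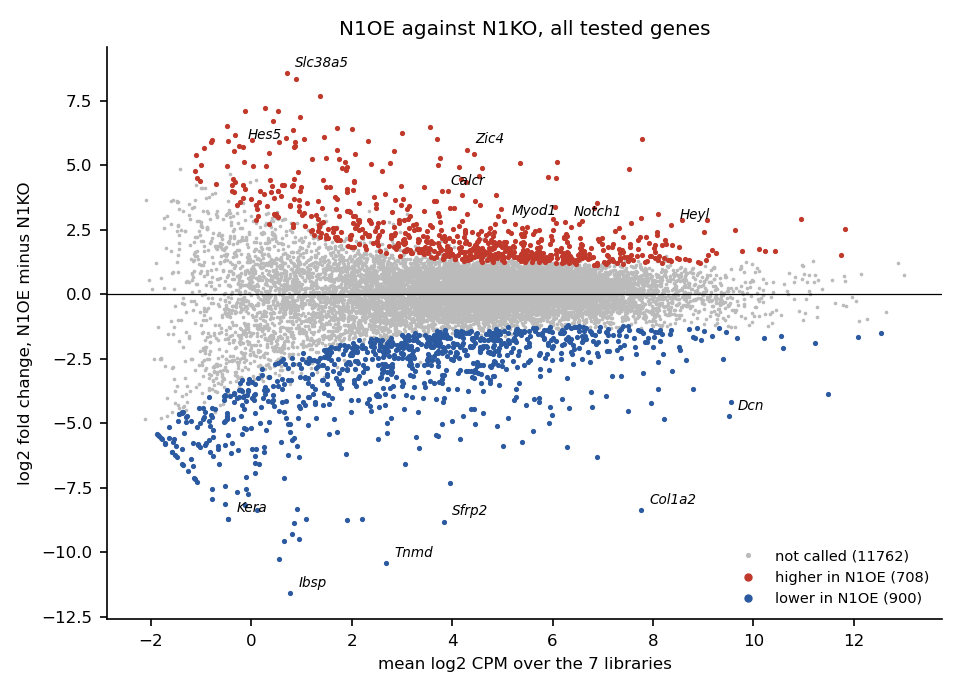
Each point is a tested gene, by its mean log2 CPM over the 7 libraries (horizontal) and its log2 fold change, N1OE minus N1KO (vertical). The 708 genes higher in N1OE are red, the 900 lower genes blue; falls reach further from 0 than rises, with Ibsp at the lower end.

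Notch1 itself differed between the 2 genotypes in the direction of the labels. N1OE libraries held 247, 257, 151 and 98.1 CPM of Notch1 and N1KO libraries 15.6, 19.8 and 52.6. The groups did not overlap, and the log2 fold change was 2.79 ± 0.46 (SE, limma, adjusted p = 0.000166). The table counts whole genes, so NICD1 transgene reads and Notch1 reads are not separated, and the N1KO libraries were not empty of Notch1 reads. Marked controls held 14.9 to 88.9 CPM and unmarked controls 136 to 174. Every N1KO value lay within the range of the marked controls, and the N1OE range spanned that of the unmarked controls. The level of Notch1 therefore does not set either genotype apart from all WT controls. Notch2 (0.44 ± 0.44, adjusted p = 0.572) and Notch4 (-0.12 ± 0.78, adjusted p = 0.941) did not pass the test. Of 21 tested ligands and regulators 2 were higher: Ncstn, a subunit of the gamma-secretase that frees NICD1 (1.49 ± 0.41, adjusted p = 0.0165), and Dlk1, a non-canonical ligand (2.69 ± 0.75, adjusted p = 0.0186). The median of the 21 was 0.32. Of all tested genes 12% were called, so 2 of 21 is no larger a share. Ncstn was lost without N1OE replicate 3, N1KO replicate 1 or N1KO replicate 2 (adjusted p 0.0509 to 0.0956), and Dlk1 without N1OE replicate 1, 2 or 4 or N1KO replicate 1 (0.0508 to 0.108). Neither passed once the control sets were subtracted (-0.02 and -2.14). The ligands Dll1 and Jag1 and the transcription factor Rbpj had values of 0.88 ± 0.54, 0.42 ± 0.45 and 0.68 ± 0.43 and did not pass.

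Since RBPJ carries NICD1 to DNA, the windows from 250 bases before to 50 after the start site of the Notch targets were searched for TGGGAA, the core letters of its motif, on both strands (RefSeq, GRCm38.p6). Of the 14 Notch targets 8 had a window in the RefSeq table, 10 windows in all, and 4 of these windows held the letters (40%), against 25.6% of all 32851 windows of this length. Another sequence searched in the same windows, CAGCTG, was in 5 of the 10 (50%), against 16.3% of all windows. Among the 6 targets called higher in N1OE, 3 had a window and 2 of them, Hes5 and Hey2, held TGGGAA, each of them once on the plus and once on the minus strand. These windows are shown 5′ to 3′ on the gene's own strand, with TGGGAA or its reverse complement in capitals. For Hes5 (chr4:154960673-154960972, plus strand) the matches begin 226 and 82 bases before the start site. For Hey2 (chr10:30842734-30843033, minus strand) they begin 207 and 3 bases before it.
Hes5: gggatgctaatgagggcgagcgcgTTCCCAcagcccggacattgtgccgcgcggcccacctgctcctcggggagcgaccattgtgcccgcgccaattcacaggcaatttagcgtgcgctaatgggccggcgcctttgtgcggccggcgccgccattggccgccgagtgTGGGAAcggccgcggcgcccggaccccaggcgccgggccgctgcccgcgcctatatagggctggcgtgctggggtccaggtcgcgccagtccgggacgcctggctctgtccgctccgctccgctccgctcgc
Hey2: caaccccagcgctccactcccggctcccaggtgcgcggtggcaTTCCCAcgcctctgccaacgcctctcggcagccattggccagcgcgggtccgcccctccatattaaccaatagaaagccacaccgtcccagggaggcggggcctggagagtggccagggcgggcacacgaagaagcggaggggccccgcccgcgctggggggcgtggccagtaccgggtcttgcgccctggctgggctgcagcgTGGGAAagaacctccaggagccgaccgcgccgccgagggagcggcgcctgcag
A match is a description of the letters only. The windows of Nrarp, Hes6, Bcl6 and Notch3 held no TGGGAA on either strand, and those of Lfng and Gadd45g held it.

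Of the 14 Notch target genes 6 were higher in N1OE and none lower, and their median log2 fold change was 1.39 (0.10 over all tested genes). Heyl, a Hey-family repressor typical of muscle stem cells, was at 776, 921, 696 and 570 CPM in N1OE and at 92.4, 71.2 and 222 in N1KO (2.68 ± 0.42, adjusted p = 0.000102). Its relative Hey1 was at 185, 288, 177 and 257 CPM in N1OE and at 22.4, 19.1 and 70.8 in N1KO (2.83 ± 0.44, adjusted p = 9.41e-05). N1KO replicate 3 was the highest N1KO library for both genes and still lay below every N1OE library. Hey2 was lower in level and also separated the groups, with 5.41 to 11.5 CPM in N1OE and 0.225 to 2.63 in N1KO (3.04 ± 0.72, adjusted p = 0.0056). Hes5 had 384 reads over the 4 N1OE libraries and 3 over the N1KO libraries, a ratio of 87.9 between the groups' pooled CPM (95% interval 29.9 to 428, counting error only). Dtx4, a Deltex family member of the pathway, was at 154 to 207 CPM in N1OE and 18.0 to 86.1 in N1KO (2.16 ± 0.45, adjusted p = 0.00183). Notch3, a receptor that is itself a target, passed narrowly (1.52 ± 0.49, adjusted p = 0.0405). It did not pass without N1OE replicate 1, 2 or 3 or without N1KO replicate 1 or 2 (adjusted p 0.0936 to 0.215).

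The other 8 targets did not pass. Nrarp, a feedback inhibitor of NICD1, was at 16.6, 15.4, 6.01 and 8.56 CPM in N1OE and at 0.787, 2.26 and 17.9 in N1KO, so that only N1KO replicate 3 reached the N1OE range (1.72 ± 0.73, adjusted p = 0.13). Hes1, the most general Hes target, was no higher in N1OE, at 205 to 438 CPM against 336 to 451 (-0.53 ± 0.40, adjusted p = 0.419). Bcl6, Gadd45g and Myc had values of 1.25, 0.90 and 0.48, Lfng and Ccnd1 of -0.81 and -1.26, and Hes6 of 0.08. After subtraction of the control sets 6 targets were higher and 1 lower. Nrarp entered the higher ones (6.5, adjusted p = 0.00021), Dtx4 left them (2.05, adjusted p = 0.0504), and Ccnd1, a G1 cyclin, was lower (-2.80, adjusted p = 0.000568). The N1OE range overlapped that of the unmarked controls for Hey1 (178 to 246 CPM), Heyl (384 to 693) and Hes5 (3.79 to 16.3), and lay above that of the marked controls (18.7 to 120, 38.7 to 351 and 0 to 1.36).

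**Figure D2:**
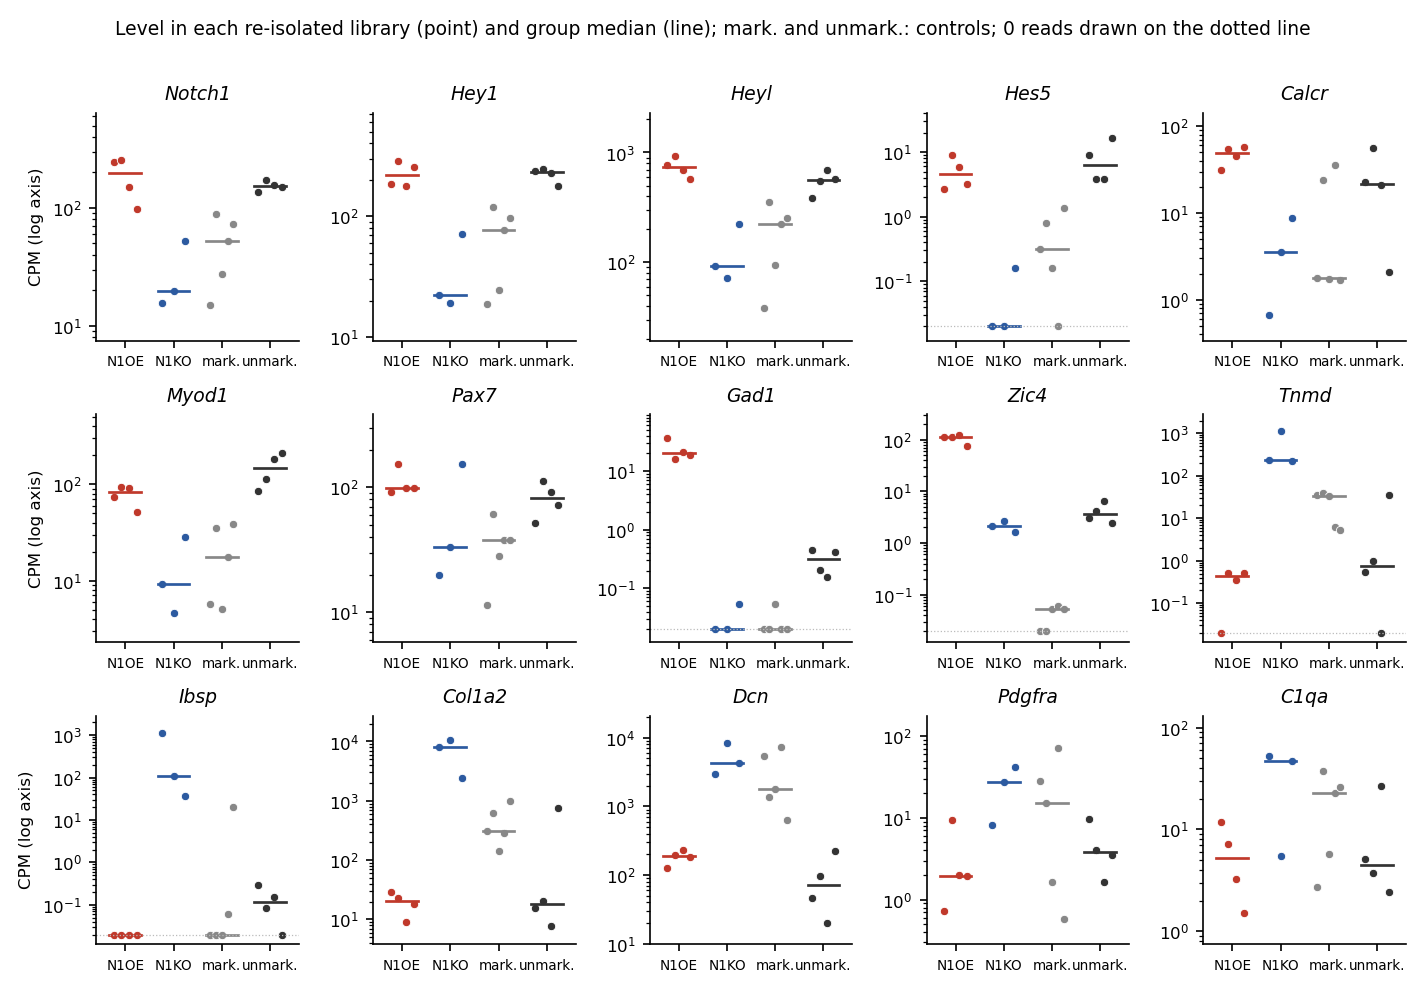
Level in CPM (log axis) of 15 genes in each re-isolated library (points) with group medians (lines), for N1OE, N1KO, marked (mark.) and unmarked (unmark.) controls; 0 reads are drawn on the dotted line. Notch1, Heyl, Calcr and Zic4 are higher in each N1OE library than in any N1KO library, and Tnmd, Ibsp, Col1a2 and Dcn are lower.

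Satellite cell markers were more often higher than lower: 10 of 26 tested were higher, none was lower, and the median was 0.80 (0.61 without N1KO replicate 1 and 1.58 without N1KO replicate 3). Without N1KO replicate 1, and likewise in the 3-group fit, 6 were called. Calcr, the calcitonin receptor that holds satellite cells quiescent, was at 31.5, 54.0, 45.5 and 57.3 CPM in N1OE and at 0.675, 3.52 and 8.86 in N1KO (4.01 ± 0.60, adjusted p = 5.28e-05). Chrdl2, a secreted BMP antagonist, was at 136, 290, 174 and 172 CPM in N1OE and at 0.506, 9.75 and 30.1 in N1KO (5.08 ± 0.77, adjusted p = 6.38e-05). Neither gene overlapped between the groups. Calcr was at 1.68 to 35.9 CPM in marked and 2.11 to 55.9 in unmarked controls, and both ranges overlap those of N1OE and N1KO. Met, the receptor for hepatocyte growth factor (2.45 ± 0.48, adjusted p = 0.00105), and Megf10, a surface receptor of myoblasts (1.94 ± 0.42, adjusted p = 0.00302), also separated the groups. The other rises were those of Heyl, Chodl, Spry1, Cdh15, Fgfr4 and Itga7, from 1.52 to 2.68. Cdh15 (M-cadherin) did not pass without N1OE replicate 2 (adjusted p = 0.0596), nor did Itga7 (0.0736) and Fgfr4 (0.075). Without N1KO replicate 1, Chodl, Spry1, Fgfr4 and Itga7 did not pass (adjusted p 0.127, 0.112, 0.142 and 0.0766), and Itga7 also failed without N1OE replicate 1 (0.0521) and without N1KO replicate 2 (0.12).

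Pax7, the transcription factor that marks satellite cells, was at 91.8, 154, 98.6 and 98.1 CPM in N1OE and at 19.9, 33.4 and 153 in N1KO, where replicate 3 overlapped the N1OE range (1.21 ± 0.51, adjusted p = 0.129). Pax3 (0.65 ± 0.40, adjusted p = 0.324) and Myf5 (1.28 ± 0.47, adjusted p = 0.0742) did not pass either. Of 20 myogenic regulators 3 were higher and 1 lower (none in the 3-group fit). Myod1, the determination factor, was at 74.5, 94.2, 90.3 and 51.4 CPM in N1OE and at 9.16, 4.57 and 28.4 in N1KO, without overlap (2.83 ± 0.50, adjusted p = 0.000352). Unmarked controls held 84.3 to 213 CPM of Myod1 and marked controls 5.06 to 38.4, and in the 3-group fit the call was lost (adjusted p = 0.107). Eya1, a cofactor of homeobox proteins, was higher (1.55 ± 0.47, adjusted p = 0.0302) and Eya2 lower (-2.22 ± 0.57, adjusted p = 0.0108), and neither passed without N1KO replicate 1 (0.33 and 0.0647). Eya1 was also lost without N1OE replicate 3 (0.076) or 4 (0.081), and Cdon, a surface receptor of myoblasts and the other rise, without any of 5 libraries (N1OE replicates 2, 3 and 4, N1KO replicates 1 and 2; 0.0664 to 0.143). Myog, which drives terminal differentiation, was at 161 to 414 CPM in N1OE and 54.8 to 352 in N1KO and did not pass (0.68 ± 0.52, adjusted p = 0.431).

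Genes of the contractile apparatus showed no common direction: of 27 tested 2 were higher, 3 were lower and the median was -0.27. Without N1KO replicate 2 none was higher and 8 were lower, with a median of -1.01. Tpm2, a tropomyosin, was lower (-2.39 ± 0.41, adjusted p = 0.000235), and Actn3, a Z-disc actinin of fast fibres, was higher (1.74 ± 0.43, adjusted p = 0.0085, but 0.156 without N1KO replicate 2). After subtraction of the control sets 9 were higher and none lower, with a median of 1.81. Of 7 myosin heavy chains Myh7, the slow isoform, was higher and Myh2, a fast isoform, lower, each with overlap between the groups. Myh7 did not pass when any 1 N1OE library was left out (adjusted p 0.05 to 0.0632), and Myh2 did not without N1OE replicate 2 or 4 (0.0663 and 0.0664) or N1KO replicate 3 (0.118). Of 9 premyogenic mesoderm genes Dmrt2 was higher (1.26 ± 0.38, adjusted p = 0.0308, but 0.06 to 0.178 without any 1 N1KO library and 0.0789 without N1OE replicate 3), and Meox2, a somite homeobox gene, was lower (-3.43 ± 0.51, adjusted p = 5.34e-05).

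The 12 largest rises were Slc38a5, Gad1, Heph, Clec4g, Spag6, Calhm1, Gprin2, Syt14, Iyd, Bnipl, Pla2g4e and Nat8f5. Slc38a5, a glutamine transporter, was at 15.9, 19.96, 18.2 and 32.8 CPM in N1OE and had no read in N1KO, which makes it at least 388-fold higher (3 reads set over the N1KO group). Gad1, which makes the transmitter GABA, was at 37.0, 15.8, 21.5 and 19.1 CPM in N1OE and had 1 read over the N1KO libraries. Controls reached at most 3.98 CPM of Slc38a5 and 0.442 of Gad1, below every N1OE library. Iyd, an iodotyrosine deiodinase, was at 69.3 to 88.0 CPM in N1OE and 0 to 5.40 in N1KO (6.48 ± 0.90, adjusted p = 2.29e-05). Heph, a copper-dependent ferroxidase, was at 15.5 to 44.5 CPM against 0 to 0.562 (7.70 ± 0.82, adjusted p = 5.03e-07). Syt14, a synaptotagmin family member, had 390 reads in N1OE and none in N1KO (at least 89.3-fold higher), while unmarked controls held 1.57 to 8.97 CPM. The others ranged in log2 fold change from 6.37 to 7.23. All 12 kept their call when any 1 of the 7 libraries was left out. Nat8f5 overlaps its paralog Nat8f6 and Heph overlaps Hsf3 on the other strand, so reads of these pairs cannot be told apart here.

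Neural and neural crest genes moved in both directions. Zic4, a zinc finger gene of neural tissue and somites, was at 114, 113, 123 and 75.2 CPM in N1OE and at 2.14, 2.64 and 1.61 in N1KO (5.61 ± 0.42, adjusted p = 7.03e-09). Marked controls held at most 0.0606 CPM of Zic4 and unmarked controls 2.41 to 6.61, so that each N1OE library lay above all others that were re-isolated. Zic4 overlaps Zic1 on the opposite strand. Of 6 tested genes in the neurogenic and Zic list Zic4, Gad1 and Pax6 were higher (median 2.02); Pax6, an eye and neural factor, did not pass without N1OE replicate 1, 2 or 3 or N1KO replicate 1 or 2 (adjusted p 0.0567 to 0.191). Of 12 neural crest and Schwann genes Sox10 (2.41 ± 0.47, adjusted p = 0.000956) and Tfap2a were higher, and Mbp, a myelin protein, was lower (-4.46 ± 0.60, adjusted p = 1.45e-05). Tfap2a was lost without N1KO replicate 1 (0.15) or any 1 N1OE library (0.058 to 0.113). Of 6 neuronal markers (median -0.58) Dcx was higher (3.86 ± 0.80, adjusted p = 0.00186), while Stmn2 (-6.16 ± 1.13, adjusted p = 0.000587) and Tubb3 were lower. Tubb3 was lost without N1OE replicate 2 or 4 or N1KO replicate 1 or 3 (0.0874 to 0.157). In the 3-group fit Stmn2 (0.0658), Sox10 (0.0591), Tfap2a (0.109) and Pax6 (0.27) were lost.

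The 12 largest falls were Ibsp, Tnmd, Pgc, Epyc, Lrrc15, Mmp13, Moxd1, Sfrp2, Col8a2, Ptgis, Wif1 and Kera. Most encode secreted or matrix proteins. Among them Ibsp, Tnmd, Pgc, Mmp13, Wif1 and Kera passed the filter only with all 3 N1KO libraries in. Without any 1 N1KO library they could not be tested, so their calls were not checked in that way. Ibsp, the bone sialoprotein, had no read in any N1OE library and stood at 1137, 111 and 37.6 CPM in N1KO, which makes it at least 11138-fold lower in N1OE (3 reads set over the N1OE group), a bound that was 1955 without N1KO replicate 1. Tnmd (tenomodulin), a membrane protein of mature tendon cells, was at 0, 0.516, 0.344 and 0.519 CPM in N1OE and at 239, 1123 and 229 in N1KO (-10.41 ± 0.72, adjusted p = 2.01e-09). Kera (keratocan), a tendon and cornea proteoglycan, had no read in N1OE and 12.4, 43.7 and 21.4 CPM in N1KO, at least 686-fold lower, or 450.3 without N1KO replicate 2. The spread within N1KO was wide: Mmp13, a collagenase, was at 367, 701 and 1.29 CPM, and Pgc, a gastric pepsinogen, at 1078, 1.21 and 455. These were also the 2 of the 12 that limma-voom on the recovered reads did not call (adjusted p = 0.0887 and 0.0768). Controls held some of these transcripts, with up to 38.8 CPM of Tnmd, 19.8 of Ibsp and 72.1 of Kera.

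Of 10 tendon genes tested 7 fell in N1OE and none rose, with a median of -4.54, while the summed level of the list overlapped between the groups (3075 to 7401 CPM in N1OE and 5010 to 13150 in N1KO). Besides Tnmd and Kera these were Fmod, a proteoglycan that binds collagen, at 13.7 to 35.7 CPM in N1OE and 433 to 4010 in N1KO (-6.29 ± 0.54, adjusted p = 3.65e-08), and Thbs4, a matrix thrombospondin, at 13.1 to 40.4 CPM and 210 to 692 (-4.05 ± 0.48, adjusted p = 2.5e-06). Thbs4 was lost in the 3-group fit (0.0824). Mkx, a transcription factor of tendon (-3.46 ± 0.67, adjusted p = 0.00102), Cilp2 and Chad also fell, Chad not without N1KO replicate 1 (0.0926). Scx, the early tendon factor, was not called, nor were Egr1 and Tnc. Leaving out N1KO replicate 1 left 4 calls and leaving out replicate 2 or 3 left 5, each among 8 genes that could then be tested. Over all 7 libraries the same 8 genes had 5 calls and a median of -3.75. The median of -4.54 and the 7 calls thus include Tnmd and Kera, which passed the filter only with every N1KO library in. Of 11 bone and cartilage genes 6 fell (median -1.66): Ibsp, Comp (-5.46 ± 0.50, adjusted p = 6.73e-08), Sp7, Acan, Spp1 and Runx2. Without N1KO replicate 1 there were 2 such calls among the 8 genes that could then be tested, Sp7 and Ibsp not being among these 8, and without N1OE replicate 4 there were 3 among 10. Over all 7 libraries the 8 genes testable without N1KO replicate 1 had 4 calls and a median of -1.44. The osteoblast factor Runx2 was lost without N1OE replicate 2 or 4 or N1KO replicate 1 or 3 (adjusted p 0.0553 to 0.119). Spp1 (osteopontin) was lost without N1OE replicate 2, 3 or 4 or N1KO replicate 1 (0.0508 to 0.108), and Acan, the cartilage proteoglycan, without N1OE replicate 1, 3 or 4 (0.058 to 0.0923). After subtraction of the control sets 7 tendon genes were lower, Tnc among them and Chad not, and of the bone and cartilage genes 2 were lower and 1 higher.

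Of 36 extracellular matrix genes 13 fell and 3 rose (median -0.39). The most marked was Col1a2, a chain of type I collagen, at 28.6, 22.9, 8.94 and 18.2 CPM in N1OE and at 8075, 10797 and 2426 in N1KO (-8.36 ± 0.49, adjusted p = 8.5e-11). Col1a1, the partner chain, was at 1854, 1153, 818 and 385 CPM in N1OE and at 15938, 24452 and 6026 in N1KO (-3.87 ± 0.54, adjusted p = 2.3e-05). Both separated the groups, Col1a2 by the larger log2 difference. Marked controls held 140 to 973 CPM of Col1a2 and unmarked controls 7.73 to 761. Postn (periostin), Thbs2, Lum, Dcn and Mmp2 fell as well, by 3.68 to 4.82 on the log2 scale. The 3 rises were laminin chains of the basement membrane: Lama2 (1.91 ± 0.40, adjusted p = 0.00207), Lama5 (2.0 ± 0.45, adjusted p = 0.00407) and Lamc1 (1.51 ± 0.44, adjusted p = 0.0254, but 0.064 to 0.241 without N1OE replicate 1 or 2 or N1KO replicate 1 or 2). In the list of collagen niche genes tied to Notch and the calcitonin receptor, Calcr was higher and Col5a1, a type V collagen chain, was lower among 9 tested. Col5a1 was at 105 to 273 CPM in N1OE and 299 to 661 in N1KO (-1.45 ± 0.42, adjusted p = 0.0256), and did not pass without N1OE replicate 2 or 3 or N1KO replicate 1 or 2 (0.0527 to 0.154). Its partners Col5a2 (-0.42 ± 0.43, adjusted p = 0.584) and Col5a3 (1.28 ± 0.45, adjusted p = 0.0624) did not pass.

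Markers of some other cell types also fell in N1OE. Dcn and Lum belong to both the matrix list and the fibro-adipogenic list, so the falls of these lists are partly the same genes. Of 12 fibro-adipogenic markers 8 fell in N1OE and none rose (median -3.40), and the 8 calls stood whichever library was left out. Dcn (decorin) was at 127 to 233 CPM in N1OE and 2971 to 8338 in N1KO (-4.71 ± 0.43, adjusted p = 6.27e-08), with 640 to 7367 CPM in marked and 19.9 to 227 in unmarked controls. Ly6a (Sca1), a surface marker of these cells, was at 1.19 to 6.87 CPM in N1OE and 94.5 to 165 in N1KO (-5.48 ± 0.53, adjusted p = 1.33e-07). In the 3-group fit 5 were called, Dcn (0.0581) and Lum (0.06) not among them. The defining receptor Pdgfra was low, at 0.72 to 9.28 CPM in N1OE and 8.26 to 42.2 in N1KO. Summed over the 12 markers the level was 2368 to 3525 CPM in N1OE, 8081 to 18546 in N1KO, 3620 to 12819 in marked and 1055 to 2391 in unmarked controls. Of 11 macrophage markers 8 fell (median -2.11), among them Lyz2 (-2.70 ± 0.52, adjusted p = 0.000878) and Mrc1 (-4.79 ± 1.07, adjusted p = 0.00376), and the sum over the list was 34.5 to 174 CPM against 195 to 688. Without N1KO replicate 1 there were 3 such calls, without N1OE replicate 2 or 3 there were 5, without N1OE replicate 4 there were 4, and in the 3-group fit 2, with Lyz2 at 0.199. Of 12 endothelial markers 5 fell, led by Cldn5 (-3.97 ± 0.79, adjusted p = 0.00127), with sums of 67.5 to 145 CPM in N1OE and 91.8 to 232 in N1KO, and 1 call was left without N1OE replicate 2 or replicate 4. No macrophage, endothelial or fibro-adipogenic marker was at 0 in all libraries of either group. In bulk samples fewer cells of a type and less RNA per cell cannot be told apart. The part of other cells in the matrix and tendon differences was not tested.

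**Figure D3:**
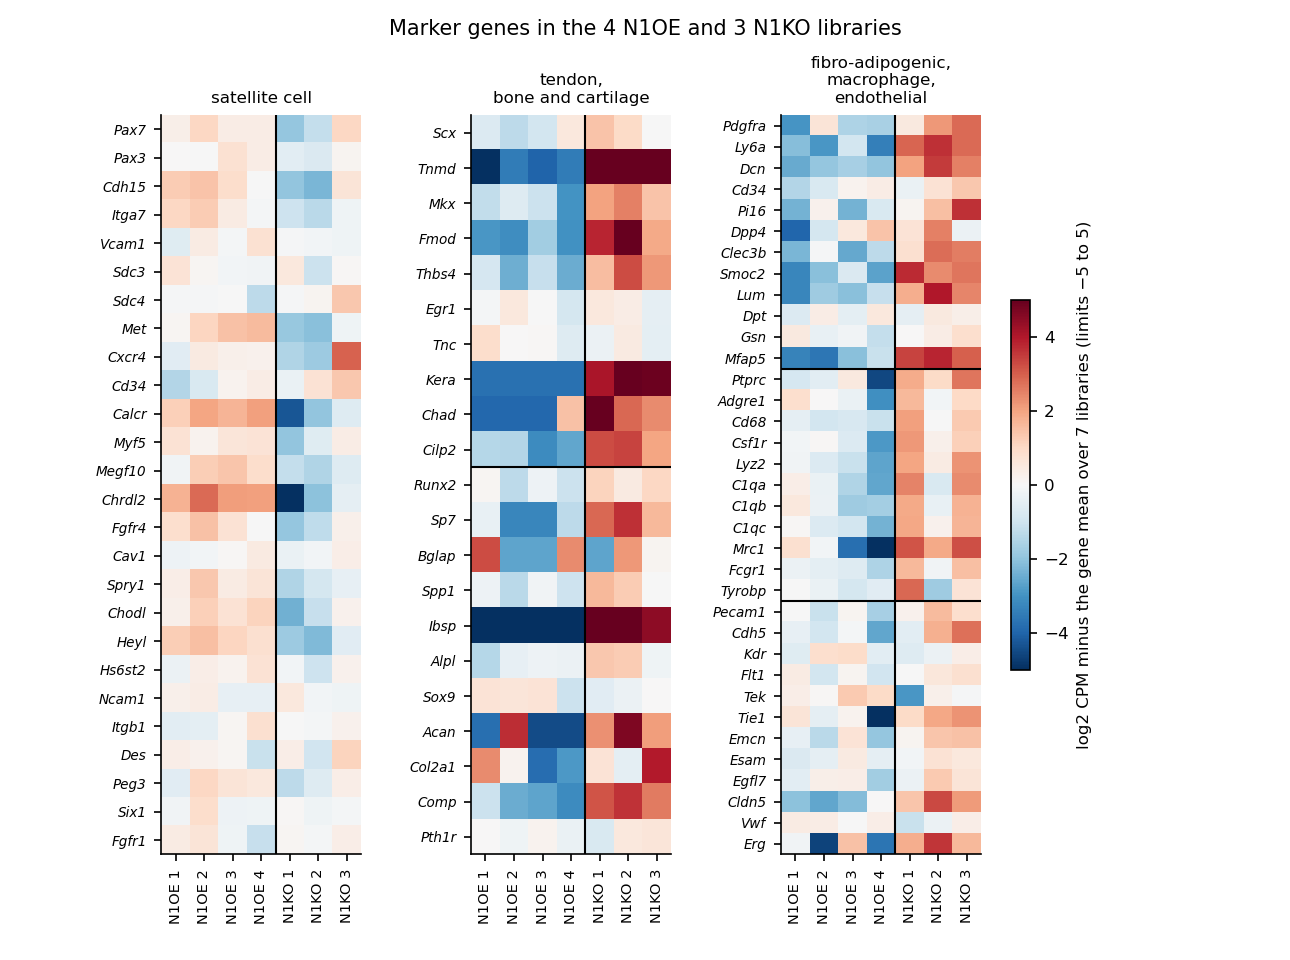
Log2 CPM minus the gene's mean over the 7 libraries for each tested marker (rows) in the 4 N1OE and 3 N1KO libraries (columns); red is above and blue below that mean. Tendon and fibro-adipogenic rows are mostly blue in N1OE and red in N1KO, and N1KO replicate 3 is nearest to N1OE among the satellite cell rows.

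Of 12 pericyte and smooth muscle markers 4 were higher and none lower, with a median of 0.24. The median was -0.21 without N1KO replicate 1, with 2 higher and 1 lower, and 1 was called in the 3-group fit. The 4 were Abcc9 (2.48 ± 0.48, adjusted p = 0.000895), Mcam, Rgs5 and Notch3. Rgs5, a pericyte regulator of G protein signals, did not pass without N1OE replicate 3 (0.0651), N1OE replicate 4 (0.0586) or N1KO replicate 1 (0.05), and Mcam did not without N1OE replicate 4 (0.051) or N1KO replicate 2 (0.0513). The summed level of the list overlapped between the groups (1350 to 1790 CPM and 1124 to 1919). Of the lymphocyte and neutrophil markers Cd3e, a chain of the T cell receptor complex, was at 1.72, 1.96, 3.27 and 5.29 CPM in N1OE and had no read in N1KO (at least 52.2-fold higher). Its partner Cd3d had no read in any of the 7 libraries. Of 2 tested erythroid markers neither passed.

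Secreted regulators of Wnt signalling differed in both directions. Of 21 tested pathway genes 8 fell and 1 rose, with a median of -2.21. Without any 1 of the N1KO libraries 16 could be tested, Rspo2 and Wif1 not among them, and 5 of the 16 fell. Without N1KO replicate 3 the median of these 16 was -0.71, against -1.19 for the same genes over all 7 libraries. The falls include the secreted inhibitors Sfrp2, at 0.0859 to 3.32 CPM in N1OE and 183 to 1458 in N1KO (-8.81 ± 0.76, adjusted p = 3.7e-08), Wif1 (-8.72 ± 0.96, adjusted p = 9.2e-07) and Dkk3 (-5.87 ± 0.51, adjusted p = 4.23e-08). They also include the agonist Rspo2 (-7.74 ± 1.03, adjusted p = 1.4e-05), its receptor Lgr5 (-3.98 ± 0.54, adjusted p = 1.59e-05), the ligand Wnt5a and the feedback inhibitor Nkd1. Rspo1, another R-spondin agonist, was the rise, at 107, 72.4, 76.3 and 56.8 CPM in N1OE and 2.36, 5.18 and 1.18 in N1KO (4.93 ± 0.48, adjusted p = 1.6e-07). Rspo1 reached at most 0.0606 CPM in marked and 12.9 in unmarked controls, and was not called in the 3-group fit (adjusted p = 0.073). The remaining fall, that of the ligand Wnt11, was lost without N1OE replicate 1 or 4 or any 1 N1KO library (0.0556 to 0.239).

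In the BMP list 2 of 21 rose and 6 fell (median -0.92). Without N1KO replicate 3 the median of the 20 genes that could be tested was 0.13, against -0.48 for the same genes over all 7 libraries. The ligand Bmp6 was at 131, 153, 169 and 155 CPM in N1OE and at 8.99, 25.6 and 48.9 in N1KO (2.75 ± 0.46, adjusted p = 0.000213). Bmp4, another ligand, also rose (1.77 ± 0.46, adjusted p = 0.012, but 0.0637 without N1OE replicate 3 and 0.196 without N1KO replicate 1). Fst (follistatin), which binds activins and BMPs, was at 7.68 to 21.1 CPM in N1OE and 89.6 to 146 in N1KO (-3.50 ± 0.44, adjusted p = 5.48e-06). The ligands Gdf6 and Bmp2, the antagonist Grem1 and the target Id2 were among the other falls. Grem1 was lost without N1OE replicate 1, 2 or 3 (0.0637 to 0.0703). Id2 moved with the control sets: unmarked controls held 182 to 273 CPM and marked controls 19.5 to 55.2, and the call was gone after subtraction (0.70, adjusted p = 0.411).

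Imprinted and fetal growth genes split, with 2 of 10 higher and 4 lower. Grb10, an adaptor that restrains growth factor receptors, was at 1.37 to 7.96 CPM in N1OE and 27.2 to 148 in N1KO (-4.04 ± 0.59, adjusted p = 4.02e-05), while all 9 controls lay between 3.26 and 6.76 CPM. Cdkn1c, the cyclin-dependent kinase inhibitor p57, was at 0.934 to 3.87 CPM in N1OE and 22.4 to 29.0 in N1KO (-3.92 ± 0.58, adjusted p = 4.76e-05), with at most 4.06 CPM in controls, and was lost in the 3-group fit (0.108). For both genes the N1KO libraries stood above N1OE and every control. Igf2 also fell (-2.61 ± 0.57, adjusted p = 0.00306), but unmarked controls held 123 to 178 CPM and the sign turned on subtraction (1.63, adjusted p = 0.239). Plagl1, an imprinted zinc finger gene, rose (2.29 ± 0.56, adjusted p = 0.00788), though not without N1OE replicate 4 (0.0582) or N1KO replicate 1 (0.0865). Of 18 quiescence genes 5 fell and 1 rose: Cdkn1c, Cited2, Rgs2, Cdkn1a and Klf4 fell, and Rgs5 rose. Klf4 was lost without N1OE replicate 1, 3 or 4 or N1KO replicate 3 (0.0664 to 0.238). After subtraction 3 were higher and 1 lower. Of 38 Hox genes 13 could be tested and 5 fell (Hoxc8, Hoxb9, Hoxc6, Hoxa7 and Hoxd8), with a median of -3.94. Only 9 or 8 could be tested without N1KO replicate 1 or 2, with no call among them: Hoxa7, Hoxb9 and Hoxc8 could not be tested, and Hoxc6 (adjusted p 0.143 and 0.0917) and Hoxd8 (0.0991 and 0.324) did not pass. The medians of these 9 and 8 genes were -1.58 and -0.76, against -1.47 and -0.97 for the same genes over all 7 libraries. The median of -3.94 thus includes genes that passed the filter only with each of these N1KO libraries in.

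Of 30 cell cycle genes 3 passed (Kif11, Cenpf and Mcm6, all higher, median 1.15), against 0 and a median of -0.18 after subtraction. The counts in this paragraph stand beside 12% called among all tested genes, 5.3% higher and 6.73% lower. None passed without N1OE replicate 1 or N1OE replicate 2. Without N1KO replicate 2 none was higher and 1 was lower, and without N1KO replicate 3 there were 16 higher and none lower. Mki67, a proliferation marker, was at 7.22 to 26.7 CPM in N1OE and 1.21 to 16.8 in N1KO and did not pass (1.85 ± 0.65, adjusted p = 0.065). Of 11 mitochondrially encoded genes tested 4 were lower in N1OE, none was higher and the median was -1.28. Their summed level overlapped between the groups (2858 to 11469 CPM in N1OE and 6849 to 13589 in N1KO). As an example mt-Nd1, a complex I subunit, was at 166 to 597 CPM in N1OE, 1136 to 2382 in N1KO, 317 to 850 in marked and 1854 to 4884 in unmarked controls, and after subtraction the list's median was -0.03 with 0 of 11 called. Of 31 nuclear oxidative phosphorylation genes 1 rose, of 20 glycolysis genes 1 fell (6 without N1KO replicate 2), and of 36 cytosolic ribosomal protein genes 1 fell. With all 7 libraries each of these counts is a smaller share than the 12% of all tested genes. Of 22 cholesterol synthesis genes 3 were higher, Lss and Sqle among them, 20 had values above 0, and the median was 0.84 (0.95 after subtraction). Without N1KO replicate 1 or 2 there was 1 such call, and without N1OE replicate 4 there were 8. Lss, lanosterol synthase, was at 26.1 to 69.5 CPM in N1OE and 9.19 to 14.4 in N1KO (2.04 ± 0.44, adjusted p = 0.00246). Of 23 interferon response genes 4 rose (Stat2, Isg15 and Usp18 among them, median 0.57), of which 1 was left without N1OE replicate 2 or N1KO replicate 2, and 2 without N1OE replicate 4.

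Stress genes showed both directions. Dnajb1, an Hsp40 chaperone, was at 5529, 10602, 7496 and 7936 CPM in N1OE and 1053, 1818 and 1239 in N1KO (2.53 ± 0.44, adjusted p = 0.000337), the only rise among 27 immediate early and dissociation genes. In that list 4 fell: Nr4a2, an orphan nuclear receptor (-3.33 ± 0.46, adjusted p = 2.3e-05), Ier3, Klf2 and Klf4. The summed level of the list overlapped between the groups, at 34274 to 71023 CPM in N1OE and 37213 to 52450 in N1KO. Of 20 p53 targets 5 fell and 1 rose (median -0.92), including Cdkn1a, the cell cycle inhibitor p21 (-1.67 ± 0.42, adjusted p = 0.00996, but 0.0887 without N1KO replicate 1), and Ccng1 (-1.92 ± 0.44, adjusted p = 0.00493). Klf4 was the fall among 2 tested pluripotency genes.

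**Figure D4:**
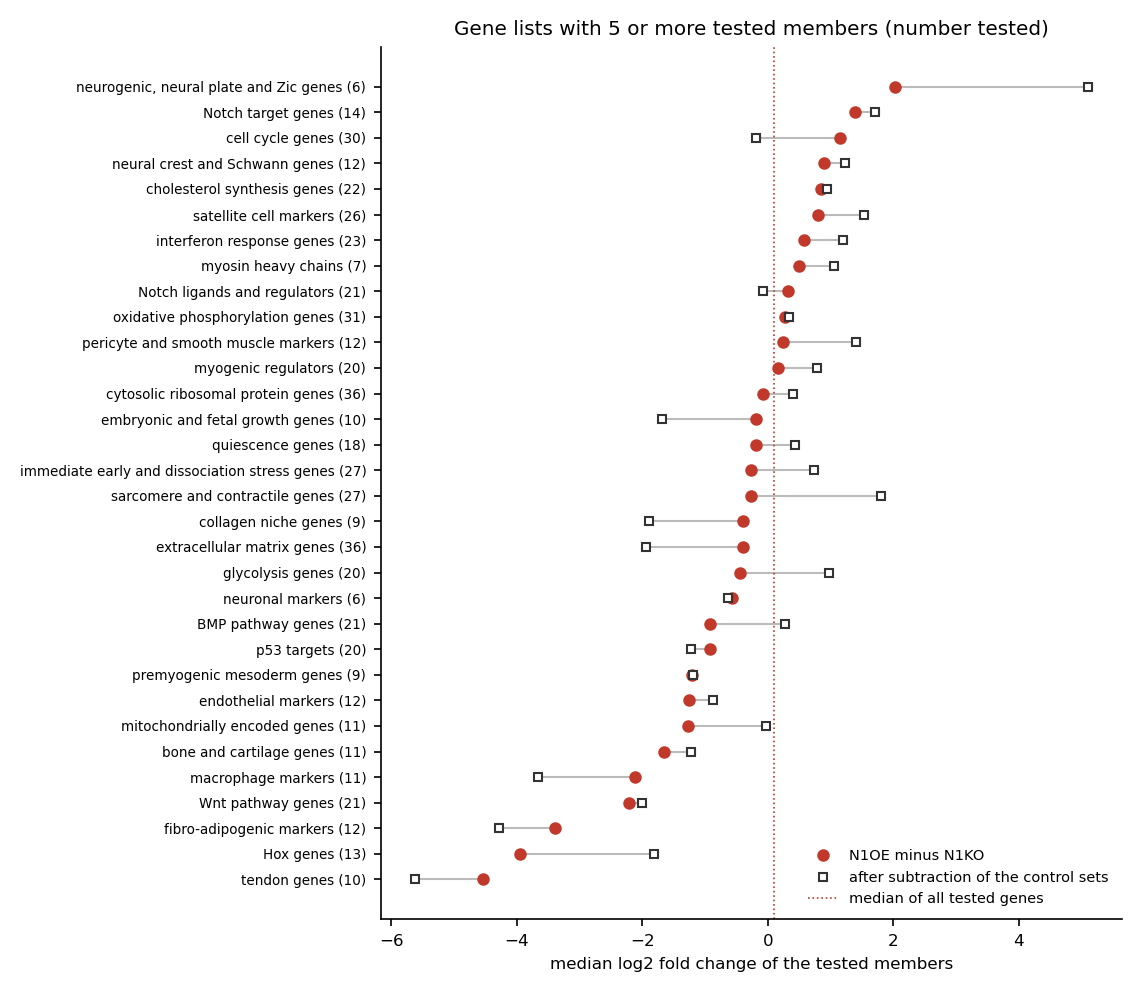
Median log2 fold change of the tested members of each gene list with 5 or more of them (number in brackets), for N1OE minus N1KO (circles) and after subtraction of the control sets (squares); the dotted line is the median of all tested genes (0.10). Tendon and fibro-adipogenic lists stay far below 0 and Notch targets above it in both, while sarcomere, cell cycle and mitochondrially encoded lists shift.

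The 2 sets of re-isolated controls, which share a genotype, differed in 3142 of the 13370 genes (23.5%) in a fit of the 4 groups, in which N1OE and N1KO differed in 1902. With control replicate 7, whose header and description disagree about the mark, in the other set the count was 0 (limma; 2451 at an unadjusted p under 0.05). Of the 708 genes higher in N1OE, 92 (13.0%) differed between the control sets in the same direction and 172 (24.3%) in the opposite one. Of the 900 lower genes these were 126 (14.0%) and 204 (22.7%). When N1OE was set against marked and N1KO against unmarked controls and the differences were subtracted, 1953 genes passed (14.6%), 943 higher (7.05%) and 1010 lower (7.55%), and 895 when the sets followed the descriptions. The labels do not state that N1OE goes with the marked or N1KO with the unmarked controls. The Y-linked gene Eif2s3y was at 46.7 to 56.3 CPM in N1KO, 8.51 to 42.2 in N1OE, 35.8 to 73.2 in marked and 0.0835 to 3.19 in unmarked controls. Eif2s3y was called lower in N1OE than in N1KO (-1.76 ± 0.48, adjusted p = 0.0166), though not without N1OE replicate 2 (0.065) or 3 (0.0722). For this gene N1KO lay within the range of the marked controls, although it is set against the unmarked ones in the subtraction. Of 3 tested Y-linked genes (Eif2s3y, Ddx3y and Uty) 1 was lower before the subtraction (median -0.91) and 3 were lower after it (median -8.94).

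Of the 708 higher genes 411 (58.1%) and of the 900 lower genes 561 (62.3%) kept call and direction after the subtraction, and 35 and 68 turned sign. Those that kept both include Notch1 (4.64, adjusted p = 4.01e-05), Hey1, Heyl, Hes5, Calcr, Myod1, Rspo1 and Zic4 among the rises and Tnmd, Fmod, Col1a2, Dcn, Sfrp2 and Fst among the falls. Of the 12 largest rises all kept the call, and of the 12 largest falls Pgc alone did not (adjusted p = 0.187). The subtraction contains the N1OE minus N1KO difference by which both sets of 12 were picked, so a kept call is no separate support. In the other direction, F2rl1 and Gfra2 turned from higher to lower and Ndrg1, Rnf128, Pnrc1, Hspb8 and Fam174a from lower to higher, each called in both comparisons; these 7 were chosen after their values were seen. Pnrc1, a nuclear receptor coactivator, shows the pattern: it was at 129 to 173 CPM in N1OE, 344 to 631 in N1KO, 52.7 to 252 in marked and 889 to 3883 in unmarked controls, so that its difference was -1.67 before (adjusted p = 0.00487, 0.0528 without N1KO replicate 1) and 2.38 after subtraction. For the satellite cell markers the subtraction gave 12 higher and 1 lower, for the matrix genes 1 higher and 22 lower, for the fibro-adipogenic markers 0 and 8, and for the Wnt genes 1 and 10.

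**Figure D5:**
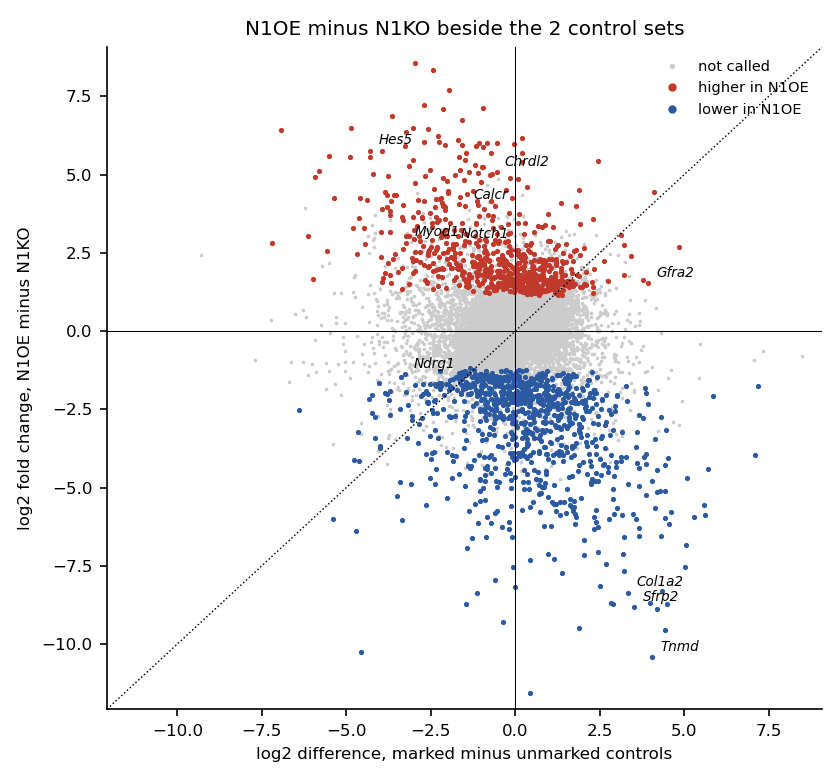
Each tested gene by its log2 difference between marked and unmarked controls (horizontal) and its log2 fold change N1OE minus N1KO (vertical); genes called higher in N1OE are red and lower blue, and the dotted line marks equal values. The large falls such as Tnmd, Col1a2 and Sfrp2 lie to the right of 0, where marked controls were the higher set, while Ndrg1 lies above the line and Gfra2 below it, opposite in sign to their N1OE minus N1KO difference.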

How the data were processed

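RNA of 4 re-isolated N1OE and 3 re-isolated N1KO libraries was compared, with 9 re-isolated controls beside them. The submitters' processing notes name FastQC, Trimmomatic 0.33, featureCounts, edgeR and the mouse build mm10. The aligner, the annotation and whether counting used strand are not given in the sources used here. A single table of log2 CPM values per gene and library was deposited by the authors, with a prior of about 0.0548 CPM added. Adding the prior back gave whole reads for 100% of values under 1000 reads (tolerance 0.05 reads). Library totals were 11637817 to 29154176 reads among the 7 libraries. Of 21264 gene IDs 21224 were found in GENCODE M21, which gave coordinates and overlapping genes.

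Genes that reached 1 CPM in 3 or more of the 7 libraries were fitted with limma 3.58.1 (R 4.3.3) on the deposited log2 values, with moderated variances that follow the mean level. The p-values were adjusted by Benjamini-Hochberg over the 13370 genes, and a call is an adjusted p under 0.05. Fold changes are on the scale of the deposited log2 values and understate changes of low genes. Means of controls enter a 4-group fit of the 16 re-isolated libraries for the subtraction. Ratios from 1 to 3 reads have exact 95% intervals, and folds against 0 reads set 3 reads over the group; both cover counting error only. Summed levels were compared by an exact permutation test of 4 against 3 libraries. Its two-sided p, with the smaller tail doubled, cannot go below 0.0571, so no p-values are given for sums. The fit was tested on simulated data. Tables and figures used Python 3.11.15, scipy 1.17.1 and matplotlib 3.10.9.

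Named by rule were Notch1, the Notch targets, the 12 largest rises and 12 largest falls (called, at least 5 CPM in the higher group, libraries not overlapping, predicted genes left out) and, from each list, its members with the lowest p, 4 at most. Other list members were named after their values were seen. The comparison and its 37 gene lists were chosen with earlier results of these data known. Alternatives were other pseudocounts, filters, scalings, fits and library omissions. Same-numbered N1OE and N1KO libraries did not deviate together, so the numbers were not used as pairs.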

Additional observations from a re-analysis of the deposited data

Results flagged for a closer look

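Among 76 values checked in the 4 N1OE libraries, 7 had 1 library farther from the others than Dixon's critical ratio allows, a gap that chance gives in about 1 in 20 groups of continuous values. The ratios were taken on the log2 scale, which widens gaps at low levels. Levels are printed in CPM, from which the ratios do not follow directly. N1OE replicate 1 was the low library for Pla2g4e (6.93 CPM against 36.7 to 49.0, ratio 0.852) and for Tnmd (0 against 0.344 to 0.519 CPM, ratio 0.845). For 3 genes the library that stood apart was the only one with reads: N1OE replicate 3 for Pgc (0.0859 CPM, ratio 1) and Mmp13 (0.859 CPM, ratio 1), and N1OE replicate 1 for Lrrc15 (1.03 CPM, ratio 1). With 0 in the other 3 libraries the ratio is 1 whatever the value, so that the share given for chance does not apply to these 3 genes, and the value for Pgc is 1 read. The summed cell cycle genes were at 425 CPM in N1OE replicate 3 and at 858 to 863 in the other N1OE libraries (ratio 0.991). The summed cytosolic ribosomal protein genes were at 13264 CPM in N1OE replicate 1 and at 7950 to 8383 in the others (ratio 0.896). The causes of these gaps were not tested.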

How the results depend on the processing

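The count of 1608 calls was 1327 to 2363 under the other pseudocounts, filters, scalings and fits, except the 3-group fit, which gave 1019. Leaving out each of the 7 libraries gave 1004 to 1692, the lowest without N1KO replicate 1, where 906 of the calls were shared. Of the 1953 calls after subtraction, 895 were left when control replicate 7 followed its description. Otherwise other settings gave 1443 to 2157. The 3142 calls between the control sets became 0 with that change of set, and were 2248 to 3240 when each control was left out in turn. Alternatives that leave out a control, and those for the control sets, were chosen after seeing the data. The cause of these shifts was not tested. Of 125 named genes with a call, 71 kept it in every omission of 1 library, 40 were tested in each and lost it in 1 or more, and 14 could not be tested in 1 or more. With 1 library of the higher group left out in turn, the bound for Ibsp was 1955 to 16391 and that for Kera 450.3 to 859. The sign turned for Hes6 (0.08) under median ratio scaling (-0.035) and without N1OE replicate 2 (-0.060), N1KO replicate 2 (-0.0241) or N1KO replicate 3 (-0.047), within a range of -0.060 to 0.31 over the omissions. It turned for Notch4 (-0.12) with log2(CPM + 1) (0.039), with log2(CPM + 5) (0.068) and without N1OE replicate 1 (0.64) or N1KO replicate 3 (0.043), within a range of -0.46 to 0.64. Neither gene was called. Under these alternatives 65 of 296 list medians moved by more than their standard error.

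Same-numbered libraries share only a number: their deviations correlated at 0.11, -0.01 and -0.01. A fit with the replicate number as a block gave 1958 calls, 986 higher and 972 lower. Depth limits genes without a read in 1 group, where 3 reads correspond to 0.103 to 0.258 CPM.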

Other observations

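Some genes were read in only 1 genotype. Of the tested genes 22 had no read in any N1OE library and 21 of them were called, among them Dlx5, a homeobox gene of bone, and Foxa1, a pioneer factor of endoderm. No read in any N1KO library was seen for 9 tested genes, of which 7 were called; with a mean of at least 5 CPM in N1OE these were Slc38a5, Syt14, Kcnv2 and Gm10591. These genes were named after their values were seen. With no read in 1 group, a gene was tested only if it reached 1 CPM in 3 libraries of the other group. The counts of calls follow largely from that filter.

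Values also differed by chromosome. The 577 genes of chromosome 1 with a mean of at least 10 CPM had a median log2 fold change of 0.47, and 71.8% of them were above 0. The median level of chromosome 1 genes minus that of other autosomes (log2) was 0.03, -0.05, 0.32 and 0.60 in N1OE replicates 1 to 4. It was -0.16, -0.09 and -0.06 in N1KO and -0.13 to 0.21 in the controls. On chromosome 15 (373 genes) the same measure was 0.18 to 0.32 in unmarked controls, -0.24 to -0.13 in marked controls, -0.51 to -0.19 in N1OE and -0.26 to -0.11 in N1KO, which thus lay with the marked controls here although it is set against the unmarked ones in the subtraction. The median log2 fold change of these 373 genes was 0.07 before and 0.43 after the subtraction. No test was made of these chromosome values, and their cause was not tested.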
